A study of Schizosaccharomyces pombe with 23 samples.

Results

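Outside the replication fork barrier itself, 3 sites of the fission yeast genome had the largest change in strand use between WT cells that express Rtf1 and WT cells that lack it. In the coordinates of the count files they are centred at 1762.5 kb of chromosome II (site A), at 745.5 kb of chromosome I (site B) and at 3142.5 kb of chromosome II (site C). Bins of 300 bp within 12 kb of a centre were taken as members, which gave 80 bins per strand at each site and 240 of 41909 bins in all. The sites were chosen by the measured strand counts themselves, as the places where these changed most in WT RFB ON against WT RFB OFF away from the barrier and from rtf1. That contrast is therefore described here without a test, and comparisons in the nup132Δ and rpn10Δ libraries, which took no part in the choice, are tested.

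Pu-Seq (polymerase usage sequencing) maps the ribonucleotides that a mutated DNA polymerase leaves in the strand it makes. Every strain carried rnh201-RED, a repair enzyme form that leaves single ribonucleotides in DNA, the RTS1 barrier with the ura4 construct on chromosome II (Rura-ChrII RTS1::phleo), and the auxotrophic alleles leu1-32, ade6-704 and ura4-D18. Pol δ libraries came from cdc6-L591G strains and Pol ε libraries from cdc20-M630F strains. RFB ON strains expressed rtf1 from the ADH1 promoter, and RFB OFF strains had rtf1 replaced by the NAT marker. The backgrounds were nup132Δ, which lacks a nucleoporin of the Y complex, rpn10Δ, which lacks a ubiquitin receptor of the proteasome, and WT. In both mutants replicates 1 and 2 of RFB ON carried a deletion with the Hygro marker, and the other libraries a deletion for which the labels name no marker. Each library is 1 strain with its own strain number, grown to log phase at 30 °C. The paper describes 2 replicates each of nup132Δ and rpn10Δ as independent, without saying in what they differ. The p-values measure the spread between these libraries alone.

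Replication starts at origins and proceeds as a pair of forks that move apart. At each fork Pol ε makes the leading strand and Pol δ the lagging strand, so that a fork moving right leaves Pol ε on the Watson strand and Pol δ on the Crick strand, and a fork moving left does the reverse. Rtf1 is a DNA-binding protein that stops forks of a single direction at RTS1, a sequence that normally sets the direction of replication at the mating-type locus. A fork that restarts after such an arrest uses Pol δ on both strands. For each library the Watson share is the Watson count over the sum of Watson and Crick counts. A fall of the Watson share in Pol δ libraries together with a rise in Pol ε libraries means more right-moving forks.

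Only chromosome I has the same length in the files as in the reference assembly (ASM294v3), with its last bin centred 0.117 kb from the reference end. On chromosome II the difference is 2.046 kb, and no genes or sequence are therefore given for sites A and C. Around site B, 7 annotated genes overlap the 3 kb on each side of the centre, of which 2 code for proteins and 5 are long non-coding RNAs (SPNCRNA.2316 to SPNCRNA.2320). The ura1 gene (SPAC22G7.06C, chromosome I, 739167 to 746114, minus strand) encodes the enzyme that starts pyrimidine synthesis. The ime4 gene (SPAC22G7.07C, 746537 to 748649, minus strand) is named after the budding yeast Ime4, a methyltransferase of mRNA adenosine. The change described below fell most at 746400 (the edge), in the 375 bp from 746162 to 746536 that no annotated gene covers, downstream of ime4 and upstream of ura1. The RefSeq sequence of the plus strand on each side of this edge is shown because it is the one edge that can be placed on the reference. Lower case marks the 150 bases on the left, where WT RFB ON and OFF differed, and capitals the 136 bases on the right, where their shares were close.
Site B edge, chrI:746251-746536: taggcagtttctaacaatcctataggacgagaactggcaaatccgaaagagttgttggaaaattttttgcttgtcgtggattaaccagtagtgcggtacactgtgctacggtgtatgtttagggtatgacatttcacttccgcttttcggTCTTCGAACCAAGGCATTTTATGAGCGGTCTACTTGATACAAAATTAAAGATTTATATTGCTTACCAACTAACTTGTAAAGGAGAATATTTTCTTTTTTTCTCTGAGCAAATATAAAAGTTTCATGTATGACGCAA
The edge is resolved to about 1 bin. Its left bin held 65.7% A and T and its right bin 67.7%, against a median of 63.7% over 18597 bins of chromosome I, and 38.1% and 25.7% of those bins were at least as rich in A and T.

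Of the 23 libraries, 20 were deep enough to use (10 or more counts in the average bin), with totals between 5396348 and 38663174. Counts over rtf1 (chromosome I, 4797195 to 4799127) matched the labels in 18 of them. The 14 other RFB ON libraries held between 96.8% and 127% of the WT RFB ON level, and the 4 RFB OFF libraries between 4.77% and 7.20%. Replicate 3 of rpn10Δ RFB ON held 7.98% in Pol δ and 8.62% in Pol ε, close to the libraries without rtf1. Replicates 1 and 2 of rpn10Δ RFB ON Pol ε kept 52.2% and 50.4% of the rpn10 counts, and their genome-wide strand asymmetry, at 0.0768 and 0.0548, had the sign of Pol δ libraries. All 3 rpn10Δ Pol ε libraries thus went against a label. The asymmetry of nup132Δ RFB ON Pol δ libraries was between 0.249 and 0.375, lower than the 0.418 of nup132Δ RFB OFF and the 0.467 and 0.460 of WT RFB ON and OFF.

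Site A had the largest change. Within 1.5 kb of its centre the Watson share of Pol δ was 0.246 in WT RFB ON (Wilson 95% interval 0.226 to 0.267, 1654 counts) and 0.435 in WT RFB OFF (0.420 to 0.449, 4567 counts). Pol ε went the other way, at 0.653 in WT RFB ON (0.638 to 0.668), against 0.493 and 0.480 in the 2 WT RFB OFF libraries. The joint change, which is the change in Pol δ minus that in Pol ε divided by 2, was -0.178 (95% interval -0.194 to -0.162). These intervals cover counting error alone, since each polymerase was covered by a single WT RFB ON library.

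At the centre of site B the Watson share of Pol δ was 0.469 in WT RFB ON (0.441 to 0.497) and 0.617 in WT RFB OFF (0.601 to 0.633). In Pol ε it was 0.573 in WT RFB ON (0.558 to 0.588), and 0.474 and 0.481 in WT RFB OFF. The joint change of -0.122 (-0.141 to -0.103) thus crossed an even share in both polymerases, with forks mostly moving right in RFB ON and left in RFB OFF. At site C the Watson share of Pol δ was 0.203 in WT RFB ON (0.183 to 0.225) and 0.303 in WT RFB OFF (0.288 to 0.318). Pol ε had 0.639 in WT RFB ON (0.623 to 0.654), against 0.519 and 0.530 in WT RFB OFF. The joint change there was -0.107 (-0.123 to -0.0908), on a stretch that forks already crossed mostly to the right in RFB OFF.

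The direction was the same at all 3 sites and the change was smaller on the right of each centre than on its left. From 1.5 to 7.5 kb on the left the joint change was -0.108 (-0.117 to -0.0979) at site A, -0.0913 (-0.103 to -0.0792) at site B and -0.0716 (-0.0850 to -0.0582) at site C. On the right it was -0.0451 (-0.0575 to -0.0327) at site A, 0.000391 (-0.0126 to 0.0133) at site B and -0.0201 (-0.0318 to -0.00841) at site C. Of 4130 windows of 3 kb outside the barrier and rtf1, 5 had a joint change of -0.1 or below, which is 0.121%, and all 5 lay among the 21 windows of these sites, as the choice of the sites implies. The next windows in rank outside the sites were chromosome III 228001 to 231000 (joint change 0.0974), chromosome I 1479001 to 1482000 (-0.0970) and chromosome II 4482001 to 4485000 (0.0858). The weakest of the 3 centre windows, that of site C, was at -0.107.

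Pol δ usage, the Pol δ level over the sum of both polymerases after scaling to library totals, gave the same picture on each strand. At the centre of site A it was 0.307 on Watson and 0.719 on Crick in WT RFB ON, against 0.533 and 0.585 in WT RFB OFF. At site B it was 0.392 on Watson and 0.494 on Crick in WT RFB ON, against 0.534 and 0.394 in WT RFB OFF. At site C it was 0.241 on Watson and 0.687 on Crick in WT RFB ON, against 0.339 and 0.566 in WT RFB OFF. Both strands changed, in opposite directions, at every centre.

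From both strands together, the share of right-moving forks at the centre was 0.706 in WT RFB ON and 0.526 in WT RFB OFF at site A, with counting errors of 0.00694 and 0.00485 (SE). It was 0.551 in WT RFB ON and 0.430 in WT RFB OFF at site B. It was 0.723 in WT RFB ON and 0.613 in WT RFB OFF at site C. On the left side, site A had 0.752 in WT RFB ON and 0.650 in WT RFB OFF, site B 0.705 and 0.616, and site C 0.502 and 0.429.

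The bias, which is the mean Pol δ usage of both strands and is 0.5 where each fork uses both polymerases, moved little. It was 0.513 in WT RFB ON and 0.559 in WT RFB OFF at the centre of site A, 0.443 and 0.464 at site B, and 0.464 and 0.453 at site C. From 1 to 3 kb downstream of RTS1 it was 0.865 in WT RFB ON and 0.496 in WT RFB OFF. The sites thus differed from RTS1 in that Pol δ did not take over both strands.

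**Figure D1:**
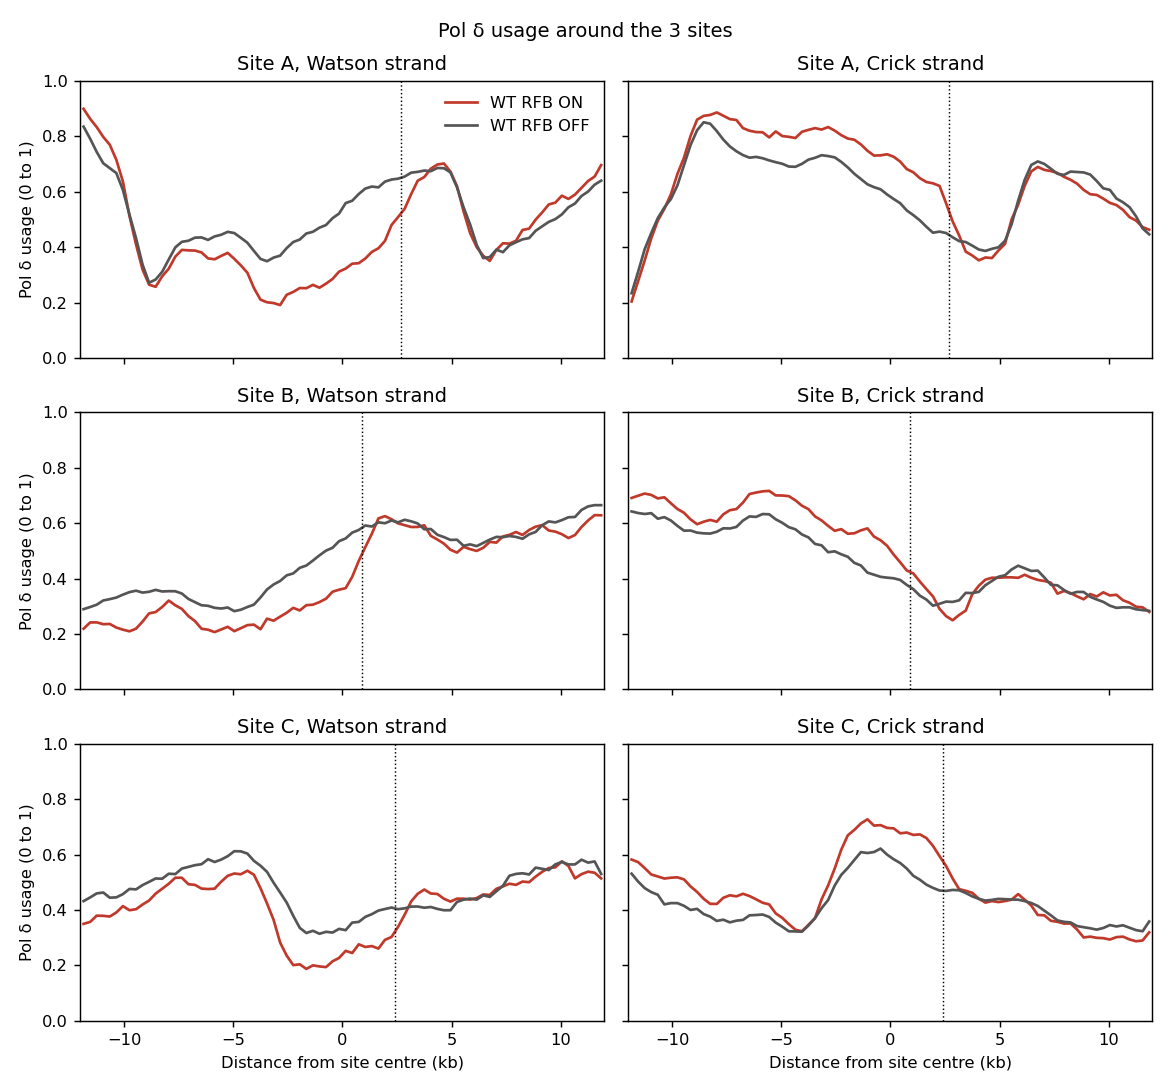
Pol δ usage on the Watson strand (left) and the Crick strand (right) against the distance from each site centre in kb, as a mean over 5 bins, in WT RFB ON (red) and WT RFB OFF (grey). The dotted line is the edge of the change, with both lines close to each other just right of it, while on its left Watson is lower and Crick higher in WT RFB ON at most positions.

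The right end of each change was placed from the WT profiles. The edge was taken as the bin boundary at which the change in right-moving forks fell most, with 5 bins on each side, a measure chosen after the profiles were seen. It lay 2.7 kb right of the centre at site A (1765.2 kb), 0.9 kb at site B (746.4 kb) and 2.4 kb at site C (3144.9 kb). Over the 1.5 kb on its left, right-moving forks made up 0.604 in WT RFB ON and 0.408 in WT RFB OFF at site A, while on its right they made up 0.372 and 0.373. At site B the shares were 0.561 in WT RFB ON and 0.428 in WT RFB OFF on the left, and 0.372 and 0.361 on the right. At site C they were 0.700 in WT RFB ON and 0.547 in WT RFB OFF on the left, and 0.522 and 0.529 on the right. A gap on the left that closes on the right follows from how the edge was placed. The change fell over the edge by 0.198 at site A, 0.121 at site B and 0.160 at site C, while the largest rise of the change within the region was 0.0881, 0.0838 and 0.101.

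After smoothing over 11 bins, the change in right-moving share was largest at 1.05 kb from the centre of site A (0.192), at -1.05 kb at site B (0.136) and at -1.65 kb at site C (0.123), negative values being left of the centre. From there it fell to 50% within 1.65 kb on the right and 6.15 kb on the left at site A. At site B these distances were 1.95 kb on the right and 5.85 kb on the left. At site C they were 4.35 kb on the right and 2.55 kb on the left, and the right end lay 0.3 kb from the edge. The left reach was thus the longer one at sites A and B. At site C the longer side depended on the smoothing, with 4.95 kb on the left and 1.05 kb on the right over 5 bins, and 5.55 kb and 2.55 kb over 21 bins. At site B the stretch above 50% over 11 bins, from 738601 to 746400, lay to 89.1% within ura1. This percentage depends on the smoothing. The stretch ran from -5.1 to 0.6 kb of the centre over 5 bins, and from -10.2 to 1.8 kb over 21 bins.

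The left sides were not alike. At site A the joint change of 3 kb windows was -0.178 at the centre and -0.129, -0.0969 and -0.0198 in the windows 3, 6 and 9 kb to the left. At site B the windows 3, 6 and 9 kb to the left had -0.113, -0.0740 and -0.0779. At site C they had -0.0813, -0.0644 and -0.0598. At site A the change was thus small 9 kb to the left, and at sites B and C it was still present there.

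**Figure D2:**
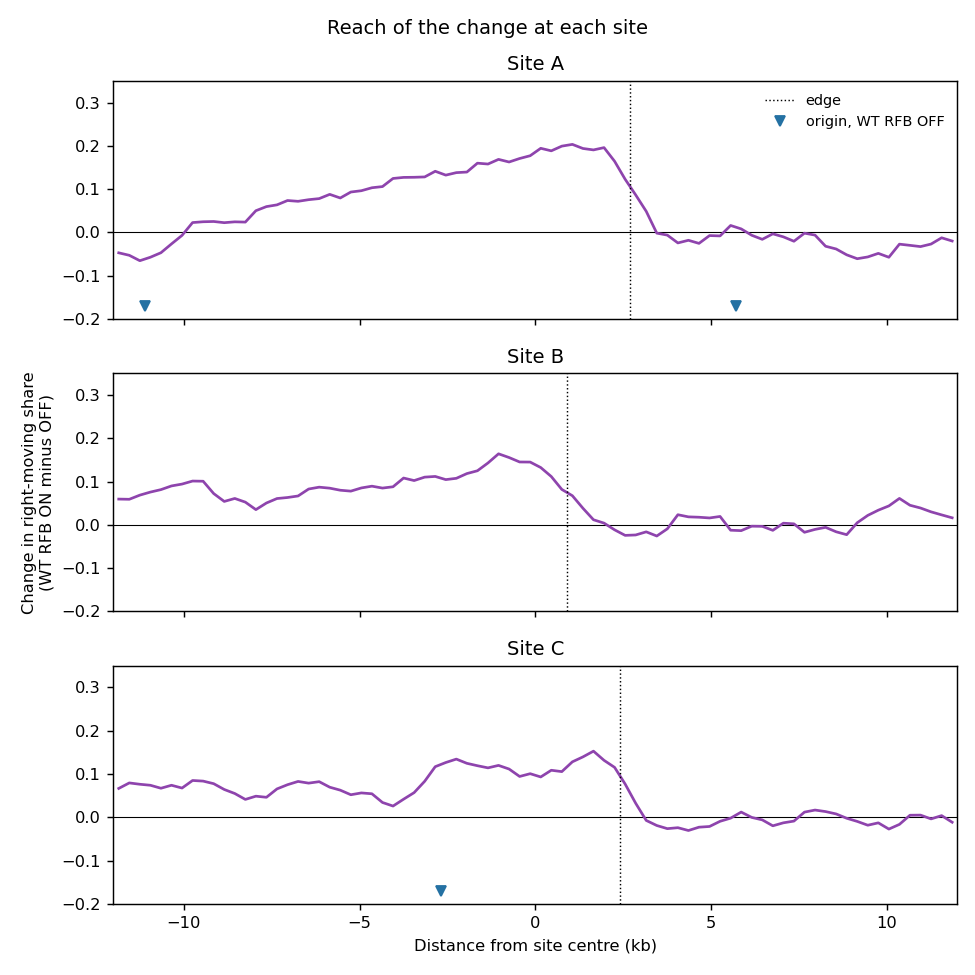
Change in the share of right-moving forks (WT RFB ON minus WT RFB OFF, mean over 5 bins) against the distance from the centre in kb, with the edge as a dotted line and origins of WT RFB OFF as triangles. By its definition the edge is where the line falls most, 2.7, 0.9 and 2.4 kb right of the centres of sites A, B and C.

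Origins were called as places where the right-moving share rises by at least 0.2 between the 3 kb on the left and the 3 kb on the right. Site A had WT RFB OFF origins at -11.1 kb and 5.7 kb from its centre, the second one 3.0 kb beyond the edge. At these the rise was 0.487 in WT RFB ON and 0.451 in WT RFB OFF on the left, and 0.269 and 0.276 on the right. The stretch above 50% of the largest change thus lay between these origins. Site C had an origin at -2.7 kb from its centre, with a rise of 0.293 in WT RFB ON and 0.240 in WT RFB OFF, and others 21.3 and 35.4 kb to the right. A rise 12.3 kb right of the centre was 0.201 in WT RFB ON and 0.195 in WT RFB OFF, on either side of the minimum. Site B had no origin within 12 kb. Its nearest ones lay at -30.9 kb, with a rise of 0.590 in WT RFB ON and 0.558 in WT RFB OFF, and at 19.8 kb, with 0.642 and 0.631. Each of these WT RFB OFF origins was also called in WT RFB ON, within 0.9 kb of their WT RFB OFF position. The edges lay at least 3.0 kb from the nearest of them. With flanks of 6 kb the origin at 5.7 kb of site A was called in neither WT RFB ON nor OFF, and that at -2.7 kb of site C was not called in WT RFB OFF.

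In nup132Δ, the comparison of RFB ON with RFB OFF was possible for Pol δ, with 4 libraries against 1. The RFB OFF library and RFB ON replicates 3 and 4 have the deletion without a named marker, and RFB ON replicates 1 and 2 the Hygro deletion. At the centre of site A the Watson share was 0.313, 0.382, 0.320 and 0.266 in nup132Δ RFB ON, against 0.437 in nup132Δ RFB OFF. All 4 lay below the RFB OFF value, as in WT. The difference was -0.117 ± 0.0473 (SD of the RFB ON libraries, n = 4), with an exact two-sided permutation p of 0.2, the smallest that 4 against 1 can give. At site B the shares were 0.492, 0.570, 0.587 and 0.431 in nup132Δ RFB ON, against 0.595 in nup132Δ RFB OFF. All 4 were again lower, although replicate 3 was close to RFB OFF (difference -0.0746, exact permutation p = 0.4). The RFB OFF share at site B lay above 0.5, and the RFB ON libraries had lower strand asymmetry (0.249 to 0.375, against 0.418). The part of the asymmetry in these lower shares was not tested. At site C they were 0.282, 0.375, 0.431 and 0.216 in nup132Δ RFB ON, against 0.281 in nup132Δ RFB OFF. Here 1 of 4 was lower, and the difference of 0.0450 was smaller than the SD of the RFB ON libraries (exact permutation p = 0.8). It became -0.0436, in units of the asymmetry, when each excess over 0.5 was divided by the library's own strand asymmetry.

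The window test gave no call for this comparison. The Watson to Crick ratio was tested over 4190 windows by quasi-likelihood in edgeR, of which 0% passed an adjusted p of 0.05 for nup132Δ RFB ON against RFB OFF in Pol δ, while 77 windows had an unadjusted p below it. DESeq2 also called 0. All libraries of the fit share 1 estimate of the spread, and the unadjusted p-values depended on which libraries entered. More windows were below 0.05 with 1 polymerase per fit or without the rpn10Δ libraries with few rtf1 counts, although no setting gave a call. The log2 change at the centre of site A was -0.72 with 1 polymerase per fit. With 1 RFB OFF library and this dependence on the fit, the lack of calls does not show that the sites did not differ. At the centre the log2 change of the ratio was -0.73 ± 0.36 (SE) at site A, -0.43 ± 0.33 at site B and 0.28 ± 0.51 at site C, with an edgeR adjusted p of 0.888, 0.888 and 0.892. Among the 21 windows of the sites, 2 had an unadjusted p under 0.05, namely those 3 and 9 kb right of the centre of site A. The first, across the edge, was lower in nup132Δ RFB ON (-0.63 ± 0.22), and the second was higher (0.60 ± 0.21). Over all 4190 windows the median log2 change was 0.00033, against -0.16, -0.21 and 0.062 over the 7 windows of sites A, B and C.

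Across site A the windows in which all 4 nup132Δ RFB ON libraries lay below RFB OFF were those from 3 kb left to 6 kb right of the centre, while at 9 kb on either side none did. At site B the windows with all 4 below were the centre and the one 9 kb to the left, and at site C the one 6 kb to the left. None lay below RFB OFF in the window 6 kb right of the centre of site B or 3 kb right of that of site C. With 4 libraries against 1, RFB OFF is the highest in 1 of the 5 possible arrangements. The share of windows with all 4 below over the whole genome is not given here, so these windows are a description alone.

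**Figure D3:**
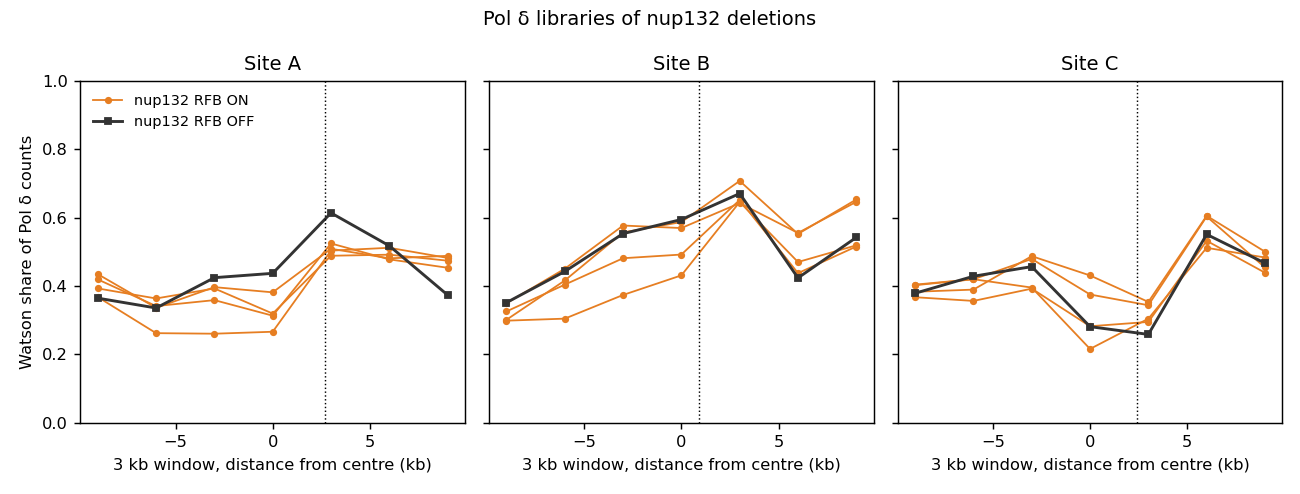
Watson share of Pol δ counts in 3 kb windows against the distance of the window from the centre in kb, for the 4 nup132Δ RFB ON libraries (orange, 1 line each) and the nup132Δ RFB OFF library (black). At the centre of site A the RFB ON lines, between 0.266 and 0.382, all lie below the RFB OFF value of 0.437, and at site C they lie on both sides of 0.281.

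The step of the Watson share over the edge, from the 3 kb on its left to the 3 kb on its right, was also read in each Pol δ library. At site A it was 0.335, 0.249, 0.271 and 0.407 in nup132Δ RFB ON, against 0.240 in nup132Δ RFB OFF, and 0.446 in WT RFB ON against 0.226 in WT RFB OFF. All 4 nup132Δ RFB ON steps were the higher ones, by 0.0751 on average (exact permutation p = 0.4). At site B it was 0.160, 0.0502, 0.108 and 0.190 in nup132Δ RFB ON, against 0.0578 in nup132Δ RFB OFF, and 0.285 in WT RFB ON against 0.0880 in WT RFB OFF. At site C it was 0.186, 0.160, 0.122 and 0.245 in nup132Δ RFB ON, against 0.174 in nup132Δ RFB OFF, and 0.283 in WT RFB ON against 0.165 in WT RFB OFF. At sites B and C the nup132Δ RFB ON steps lay on both sides of RFB OFF (exact permutation p = 0.6 and 1). Replicate 4 had the largest step at all 3 sites and also the highest strand asymmetry of the 4 (0.375). The part of the lower asymmetry of the other 3 in their steps was not tested.

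In Pol ε no usable nup132Δ RFB OFF library was left. The 4 nup132Δ RFB ON Pol ε libraries had Watson shares at the centre of 0.481, 0.471, 0.606 and 0.567 at site A, 0.552, 0.543, 0.570 and 0.574 at site B, and 0.542, 0.503, 0.641 and 0.605 at site C. Replicates 3 and 4, from the deletion without a named marker, lay closer to WT RFB ON than replicates 1 and 2, from the Hygro deletion, at all 3 sites. Their asymmetry was also larger, at -0.450 and -0.339, against -0.203 and -0.150. At site B all 4 lay above the WT RFB OFF values of 0.474 and 0.481. At site A replicate 2 lay below the WT RFB OFF values of 0.480 and 0.493, and replicate 1 between them. At site C replicate 2 lay below the WT RFB OFF values of 0.519 and 0.530. The other libraries at sites A and C lay above WT RFB OFF. Usage over both polymerases was taken in the 3 kb on each side of the edge, not in the 1.5 kb used for WT above. In nup132Δ RFB ON the right-moving shares left and right of the edge were 0.580 and 0.436 at site A. They were 0.544 and 0.412 at site B, and 0.609 and 0.522 at site C. WT RFB ON had 0.649 and 0.360 at site A, 0.601 and 0.359 at site B, and 0.704 and 0.509 at site C. In WT RFB OFF the share also fell over each edge position, with 0.450 and 0.362 at site A, 0.461 and 0.358 at site B, and 0.578 and 0.525 at site C. The direction alone thus does not set nup132Δ RFB ON apart from RFB OFF.

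**Figure D4:**
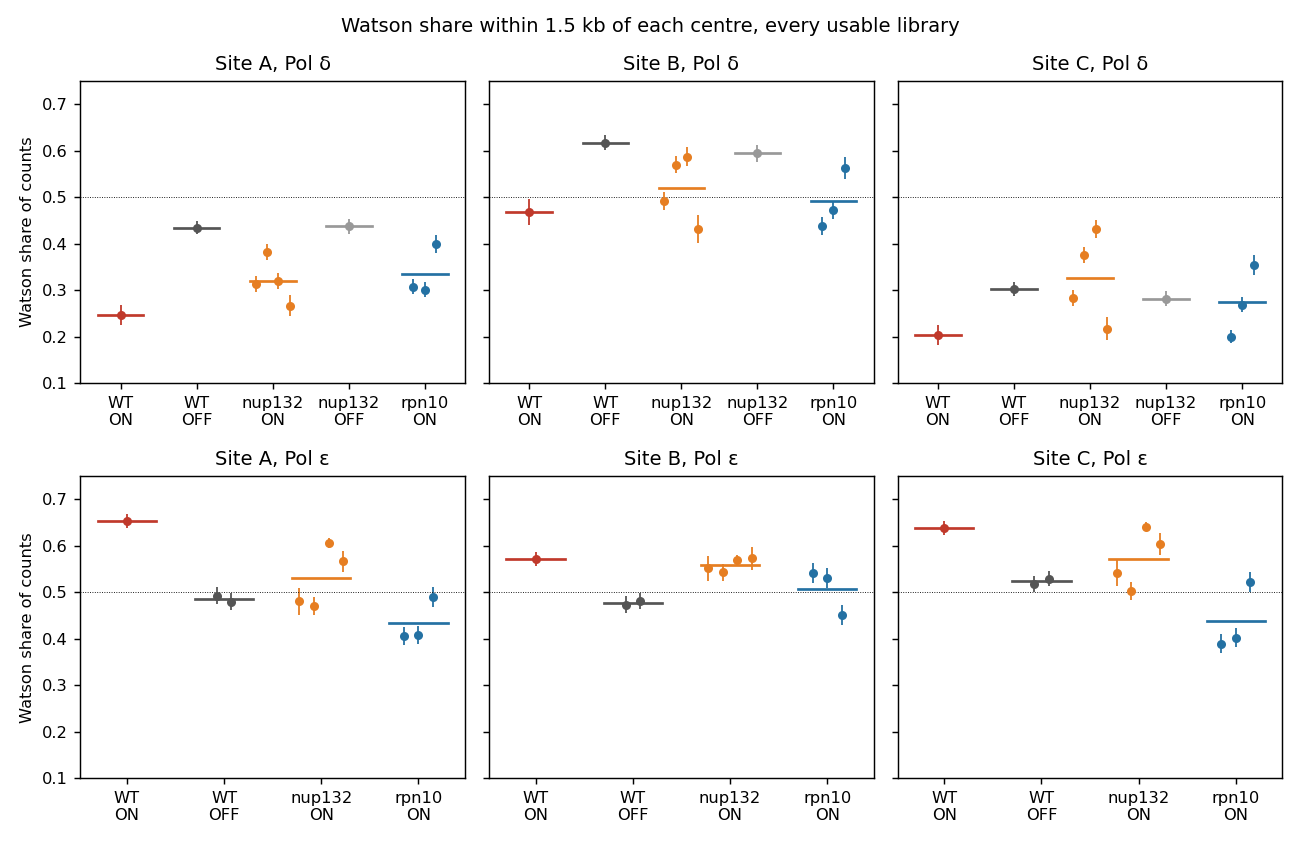
Watson share within 1.5 kb of each centre in every usable library, Pol δ above and Pol ε below, with Wilson 95% intervals as vertical lines, group means as horizontal lines and an even share dotted. At site A the WT RFB ON library lies at 0.246 in Pol δ and 0.653 in Pol ε, outside the range of WT RFB OFF, and the nup132Δ and rpn10Δ RFB ON libraries lie between 0.246 and 0.435 in Pol δ.

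The libraries labelled rpn10Δ RFB ON were compared with nup132Δ RFB ON, since none is labelled rpn10Δ RFB OFF. By its rtf1 counts the replicate 3 of each polymerase is like the RFB OFF libraries, so that each difference is also given without it. In Pol δ the Watson share at the centre of site A was 0.307, 0.301 and 0.399 in rpn10Δ, against the nup132Δ RFB ON range of 0.266 to 0.382. The groups overlapped, and the difference of 0.0154 was within the spread (exact permutation p = 0.686, 3 against 4). It turned to -0.0161 without replicate 3, the library with few rtf1 counts. At site B the share was 0.438, 0.472 and 0.563 in rpn10Δ, against 0.431 to 0.587 in nup132Δ (difference -0.0292, exact permutation p = 0.571, and -0.0653 without replicate 3). At site C it was 0.1997, 0.269 and 0.354 in rpn10Δ, against 0.216 to 0.431 in nup132Δ (difference -0.0522, exact permutation p = 0.429, and -0.0919 without replicate 3). At every site replicate 3 had the highest share of the 3, and at site C it lay above the 0.303 of WT RFB OFF and the 0.281 of nup132Δ RFB OFF. At sites A and B it lay below WT RFB OFF (0.435 and 0.617) and nup132Δ RFB OFF (0.437 and 0.595).

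The step over the edge sorted the rpn10Δ Pol δ libraries in the same way. It was 0.383, 0.392 and 0.252 at site A in rpn10Δ replicates 1, 2 and 3, 0.208, 0.220 and 0.110 at site B, and 0.206, 0.212 and 0.142 at site C. Replicates 1 and 2, with full rtf1 counts, lay above the RFB OFF steps of both backgrounds at each site, while replicate 3 lay above them at sites A and B and below them at site C. Replicates 1 and 2 also carry the Hygro deletion and replicate 3 the one without a named marker. Their strand asymmetry was 0.283, 0.318 and 0.377. The rtf1 counts cannot be told apart from the deletion in these libraries, and the part of the asymmetry was not tested.

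In Pol ε the Watson share at the centre was 0.406, 0.409 and 0.490 in rpn10Δ at site A, against 0.471 to 0.606 in nup132Δ RFB ON. It was 0.541, 0.531 and 0.451 in rpn10Δ at site B, against 0.543 to 0.574 in nup132Δ. It was 0.389, 0.402 and 0.522 in rpn10Δ at site C, against 0.503 to 0.641 in nup132Δ. The groups did not overlap at site B, with a difference of -0.0518 and the smallest exact permutation p that 3 against 4 can give, 0.0286, which is not adjusted. The share of all windows in which these groups do not overlap is not given here. In all, 18 values were compared for each polymerase, over sides, centre and edge. This smallest p was also reached in Pol ε in the 3 kb left of the edge, with differences of -0.0771 at site A, -0.0815 at site B and -0.118 at site C. That stretch shares bins with the centre window at each site. In Pol δ the smallest p was reached on the right side of site A, with a difference in Watson share of 0.0230. With 1 library left out, the design can no longer reach a p of 0.05. The part of the label mismatches of the rpn10Δ Pol ε libraries in these differences was not tested. Without replicate 3 the difference at the centre was -0.124 at site A, -0.0234 at site B and -0.177 at site C, and both remaining libraries have the asymmetry sign of Pol δ.

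In the window test of rpn10Δ against nup132Δ, RFB ON, 0.0716% of windows passed in Pol δ and 0.0239% in Pol ε (edgeR, Benjamini-Hochberg over 4190 windows), and none of the 21 windows of the sites did. Of these 21, 1 in Pol δ and 6 in Pol ε had an unadjusted p under 0.05. Over all 4190 windows, 192 in Pol δ and 213 in Pol ε had one. The centre windows had log2 changes in Pol ε of -0.57 ± 0.24 (SE) at site A, -0.30 ± 0.22 at site B and -0.80 ± 0.35 at site C, with an edgeR adjusted p of 0.351, 0.353 and 0.351. Those of sites A and C passed without replicate 3 (edgeR adjusted p = 0.0186 and 0.0193), a fit in which 3176 of all windows passed.

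Within 3 kb of the centre the counts of both strands stood at 0.587 to 0.815 of the level 6 to 12 kb away at site A over the 20 libraries, at 0.811 to 0.948 at site B and at 0.855 to 1.15 at site C. In WT Pol δ the ratio was 0.603 in RFB ON and 0.697 in RFB OFF at site A, 0.872 and 0.896 at site B, and 1.10 and 1.05 at site C. In WT Pol ε it was 0.815 in RFB ON and 0.790 in RFB OFF at site A, 0.891 and 0.864 at site B, and 0.863 and 0.935 at site C. The lowest bin of any site in any library still had 34 counts. Site A was thus covered less than its flanks, in RFB ON and OFF alike. Relative to the median of each library, however, its counts within 3 kb of the centre stood at 0.895 to 1.17.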

How the data were processed

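The authors aligned Pu-Seq reads with Bowtie2 and deposited whole-number counts of read ends for each strand in bins of 300 bp; these are not normalized. The genome build is not given in the sources used here. Members and lists were chosen with earlier results of these data known. Libraries were grouped by genotype, and the 3 with a mean under 10 counts per bin were left out. Replicate pairs differed by 1.45 to 19.0 times the counting error (chi-square per degree of freedom). Shares were taken from summed counts, with Wilson 95% intervals, which cover counting error only. Usage was taken from counts over library totals. Differences between libraries were tested by exact two-sided permutation and not adjusted over the sites. Windows of 3 kb averaging 10 counts or more entered edgeR's quasi-likelihood test, with library and strand within group as terms. Named genes are those within 3 kb of a centre where coordinates match the reference, and rtf1. The scripts were tested on simulated data. Alternatives covered side width, scaling, filters, each library and DESeq2. Versions were Python 3.11.15, numpy 2.4.6, scipy 1.17.1, R 4.3.3, edgeR 4.0.16 and DESeq2 1.42.0.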

Additional observations from a re-analysis of the deposited data

Results flagged for a closer look

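On the right side of site C, from 1.5 to 7.5 kb, the Pol δ Watson share had differences of opposite sign in the 2 backgrounds. All 4 nup132Δ RFB ON libraries lay above nup132Δ RFB OFF, by 0.0120 to 0.0831 and by 0.0465 on average, while the WT RFB ON library lay 0.0140 below WT RFB OFF. The WT difference was within counting error, with Wilson 95% intervals of 0.388 to 0.422 in WT RFB ON and 0.408 to 0.430 in WT RFB OFF. The nup132Δ RFB ON mean of 0.442, against 0.396 in nup132Δ RFB OFF, was nearer to an even share, and the strand asymmetry of these RFB ON libraries was lower (0.249 to 0.375, against 0.418). Divided by the asymmetry, the difference was 0.0569. The difference between backgrounds was not tested. No library stood apart from its group at the 95% level of Dixon's test among 36 groups of 4 libraries, of which chance alone would mark about 1 in 20.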

How the results depend on the processing

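The WT changes kept their direction at all 3 centres under the alternatives run. Dividing each excess over 0.5 by the library's strand asymmetry gave -0.357, -0.250 and -0.209 at the centres of sites A, B and C. Edge positions with 3 or 10 bins on each side, an alternative chosen after seeing the data, stayed within 1 bin. The reach depended on smoothing, with the left reach of site B between 4.05 and 7.65 kb, and at site C the longer side turned from right to left with 5 or 21 bins. For nup132Δ RFB ON minus OFF in Pol δ, the sign turned on the right of site A with the wider sides (0.00267), on the right of site B with 3 kb (-0.00866) and at the centre of site C with asymmetry scaling (-0.0436).

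The differences between rpn10Δ and nup132Δ were the least stable. With side widths other than 6 kb, the sign turned in Pol δ on the right of site A (-0.00728), the left of site B (0.00366) and the left of site C (-0.000685), and in Pol ε on the right of site C (0.0212). With asymmetry scaling it turned in Pol ε on the right of site A (0.101), at the centre of site B (0.104) and on the right of site B (-0.00203). Without the libraries with few rtf1 counts it turned in Pol δ at the centre of site A (-0.0161) and on the left of site C (-0.00484), and in Pol ε on the right of site A (0.00918) and the left of site C (0.0215), while the centre of site B in Pol ε had -0.0234. With Hygro deletions alone Pol δ had -3.76e-06 on the left and -0.0434 at the centre of site A, and Pol ε 0.0115 on the right of site A, -0.0113 at the centre of site B, and 0.0282 on the left and 0.00751 on the right of site C. With 1 library left out in turn, Pol δ ranged from -0.0119 to 0.0282 on the left and -0.0161 to 0.0359 at the centre of site A, -0.0500 to 0.00831 on the left and -0.0334 to 0.00215 on the right of site B, and -0.00484 to 0.0414 on the left of site C. Pol ε ranged from -0.0145 to 0.00918 on the right of site A, -0.0685 to -0.0234 at the centre and -0.00471 to 0.0450 on the right of site B, and -0.0290 to 0.0215 on the left and -0.0226 to 0.00296 on the right of site C.

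In the window test, the 3 calls in Pol δ became 12 with 1 polymerase per fit, 16 without the libraries with few rtf1 counts, 61 with DESeq2 and 2 to 20 with 1 library left out, the highest without rpn10Δ Pol ε replicate 3. The 1 call in Pol ε became 2 with 1.5 kb windows, 0 with 1 polymerase, 6 with DESeq2, 3190 without the libraries with few rtf1 counts and 1 to 3176 with 1 library left out. The log2 change at the centre of site A in Pol δ turned to -0.10 without those libraries and ranged from -0.10 to 0.23 with 1 left out. The cause was not tested. No paired analysis was possible because replicate numbers follow accession order and pair no libraries. After the filter on depth there was a single WT RFB ON library per polymerase, a single nup132Δ RFB OFF library in Pol δ and none in Pol ε.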
